A study of Mus musculus with 5 samples.

Results

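PU.1 occupancy was described at 39 interferon-stimulated genes in mouse dendritic cells. The members were chosen by name, as a set of well-known interferon-induced genes, and a member locus was the gene span in mm10 with 10 kb on each side. Read counts in windows of 10 bp were summed over each locus and were also followed site by site. Of the 39 members, 34 held at least 1 tested window, out of 15003 loci with a tested window among 21889 annotated genes (68.5%). The remaining 5 were Isg15, Ifit1, Ifit3, Oas1a and Eif2ak2.

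The libraries came from dendritic cells grown in Flt3L culture from a mouse strain labelled C56BL/6. The conventional cells (cDCs) and the plasmacytoid cells (pDCs) each gave 2 PU.1 ChIP-seq libraries, labelled as biological replicates, and cDCs also gave 1 input library without antibody. No stimulus is given in the labels, and neither is age. Totals over windows ran from 6896416 to 11388554 counts in the PU.1 libraries and came to 2776490 in the input. In the input 74.6% of these counts lay in windows with at least 1000 input counts, here called repeat windows. That share was 17.98% in pDC replicate 2 and between 9.15% and 10.5% in the other PU.1 libraries. Sequencing depth itself is unknown, since only windows with signal are listed.

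Type I interferon binds a receptor that acts through the kinases JAK1 and TYK2, and transcription factors that include IRF9 then bind the interferon-stimulated response element (ISRE) in the promoters of these genes. The products block viral entry, translation and replication or sense viral RNA. pDCs are known as strong producers of type I interferon. PU.1, encoded by Spi1, is an ETS factor of myeloid and lymphoid cells that binds purine-rich sites with a GGAA core. With IRF4 or IRF8 it can bind a composite ETS-IRF element (EICE), which joins a GGAA core to an ISRE-like GAAA repeat.

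The promoter sequences of the members were read first, because ISRE and EICE letters overlap and PU.1 signal was present at some of these promoters and not at others. The RefSeq table for GRCm38.p6, which has the chromosome coordinates of mm10, held 38 promoter windows for 31 members, each from 250 bases before to 50 after a transcript start. The 4 motifs below were searched on both strands. The ISRE core, GAAA then any 2 bases then GAAA, matched 20 of the 38 member promoters (52.6%), against 3.35% of 21263 promoters of protein-coding genes. The EICE, GGAA then any 2 bases then GAAA, can overlap the ISRE core and matched 5 member promoters (13.2%) against 2.53%. The PU.1-type letters GAGGAA matched 39.5% against 27.4%, and the longer form GAGGAAGT 2.63% against 3.13%. A match is a description of the letters and not a measured binding site.

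The following stretches end at the base before the transcript start, except for Trim25, where 10 bases beyond it are included. Capitals mark ISRE core and EICE matches. Igtp (chr11:58199436-58199555, plus strand), Gbp7 (chr3:142530216-142530335, plus strand), Gbp5 (chr3:142496814-142496933, plus strand) and Trim25 (chr11:88999283-88999412, plus strand) are shown as examples from the 16 member promoters that held tested windows. Irgm2 (chr11:58214857-58214976, plus strand) is a neighbour in the Igtp locus that is not a member.
Igtp: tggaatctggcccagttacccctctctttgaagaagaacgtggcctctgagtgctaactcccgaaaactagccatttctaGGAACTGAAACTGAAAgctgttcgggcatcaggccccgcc
Irgm2: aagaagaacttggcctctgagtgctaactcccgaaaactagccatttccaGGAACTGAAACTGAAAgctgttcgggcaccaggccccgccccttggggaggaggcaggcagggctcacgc
Gbp7: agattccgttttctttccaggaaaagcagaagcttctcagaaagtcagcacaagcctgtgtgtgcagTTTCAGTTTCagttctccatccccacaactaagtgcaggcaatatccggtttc
Gbp5: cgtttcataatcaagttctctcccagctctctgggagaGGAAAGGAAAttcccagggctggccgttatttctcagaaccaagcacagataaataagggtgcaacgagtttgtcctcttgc
Trim25: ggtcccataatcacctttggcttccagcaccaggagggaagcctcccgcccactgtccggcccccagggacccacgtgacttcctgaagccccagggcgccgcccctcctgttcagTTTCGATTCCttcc
Isg15 (chr4:156200819-156200938, minus strand), Ifit1 (chr19:34640769-34640888, plus strand) and Oas1a (chr5:120907526-120907645, minus strand) are shown because they hold several ISRE core matches but no tested window in the whole locus.
Isg15: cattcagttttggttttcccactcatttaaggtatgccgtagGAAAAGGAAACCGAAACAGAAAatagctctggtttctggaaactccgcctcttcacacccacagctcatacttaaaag
Ifit1: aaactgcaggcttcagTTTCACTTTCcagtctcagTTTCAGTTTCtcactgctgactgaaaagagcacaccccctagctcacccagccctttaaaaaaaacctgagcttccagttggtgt
Oas1a: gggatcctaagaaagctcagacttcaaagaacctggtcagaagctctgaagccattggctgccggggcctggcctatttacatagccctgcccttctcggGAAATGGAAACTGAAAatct

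ISRE letters and PU.1 windows did not go together throughout the member promoters. Of the 20 promoters with an ISRE core, 9 held a tested window and 11 did not, and the 11 belonged to Eif2ak2, Gbp2, Ifit1, Ifit3, Ifitm2, Ifitm3, Irgm1, Isg15, Oas1a, Oas1g and Rsad2. Of the 5 promoters with an EICE, those of Adar, Gbp5, Igtp and Trim25 held a window and that of Ifi44 did not. Windows were present in 16 of the 38 member promoters (42.1%) and in 22.9% of all promoters. They were held by 45% of the member promoters with an ISRE core and 38.9% of those without. For GAGGAA these shares were 66.7% and 26.1% in members, and 30.5% and 20% among all promoters. Among all promoters, windows were found in 29.2% of those with an EICE, 24.3% of those with an ISRE core and 53.8% of those with GAGGAAGT. These shares are descriptions over promoters that were not tested.

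**Figure D1:**
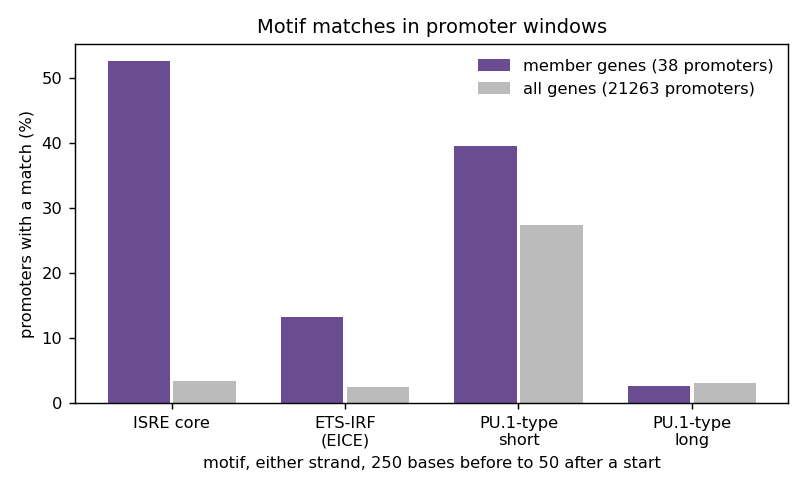
Percent of promoter windows with at least 1 match of each motif on either strand, for 38 promoters of member genes (purple) and 21263 promoters of protein-coding genes (grey). The ISRE core bar stands at 52.6% for members and 3.35% for all promoters.

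PU.1 signal peaked close to the transcript start at several of these genes. At Igtp, an interferon-inducible GTPase, the highest window lay at -51 bp from the start, beside the EICE that begins 40 bases before it. Its signal in CPM, counts scaled to library size, was 4.57 and 3.63 in cDCs and 5.54 and 4.50 in pDCs, with 1 count in the input. The libraries of both cell types overlapped there. Near the Irgm2 start, in the same locus, the highest window held 7.04 and 7.69 CPM in cDCs and 9.10 and 9.01 CPM in pDCs. The Igtp and Irgm2 promoters share an identical run of 61 bases out of 300, and the capitals above are alike in both. The sources used here do not say how reads of 49 bp that fit both places were assigned, which leaves the division between them uncertain.

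Gbp7, which encodes a guanylate-binding protein of cell-autonomous immunity, had a strong site at its start. The highest window lay at -81 bp from the start with 10.1 and 7.17 CPM in cDCs and 9.10 and 7.72 CPM in pDCs. At Gbp3 the highest window lay 199 bp after the start, at 6.86 and 5.01 CPM in cDCs and 7.12 and 5.79 CPM in pDCs. At Gbp5 a weaker site with its highest window at -179 bp from the start held 1.46 and 1.90 CPM in cDCs and 1.58 and 1.93 CPM in pDCs. This Gbp5 site did not pass the test against the input described below (log2 fold over input 2.15, edgeR adjusted p = 0.383). The cell types thus overlapped at the starts of these 3 genes.

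Trim25, a ubiquitin ligase that acts with the RNA sensor RIG-I, had its highest start window 2 bp from the start, where the EICE lies. The window held 3.29 and 3.54 CPM in cDCs and 6.33 and 5.63 CPM in pDCs. Both pDC libraries lay above both cDC libraries, but the site did not pass the test (edgeR adjusted p = 0.102). At Ifi35, an interferon-induced leucine zipper protein, the highest window 43 bp after the start held 4.39 and 5.44 CPM in cDCs and 4.35 and 4.50 CPM in pDCs. Trim30a, a TRIM-family protein, had a site over each of 2 annotated starts. Their highest windows held between 3.46 and 5.62 CPM in cDCs and between 3.16 and 5.15 CPM in pDCs.

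Across the set, 22 sites had their highest window within 1 kb of a member's start. They belonged to 16 of the 31 members with a promoter entry (51.6%), where 35.3% of all 17492 genes with an entry had such a site. A site that also passed the test against the input described below was found at 7 of the 31 members and at 14.1% of all these genes. None of the 22 sites was called different between pDCs and cDCs by the quasi-likelihood test of edgeR (smallest adjusted p = 0.0558, 3 sites with an unadjusted p below 0.05), where 14.5% of all sites were called.

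Over the member loci as a whole, PU.1 signal was much alike in total between the cell types. The 525 distinct tested windows of the set held 1504 and 1453 CPM in cDCs and 1467 and 1448 CPM in pDCs, with 1209 counts in the input. Locus values below are CPM on the scale of locus sums, and log2 folds are pDC minus cDC with the standard error (SE) and n = 2 libraries per cell type. By the edgeR quasi-likelihood test with Benjamini-Hochberg adjustment at 0.05 over all loci, pDCs were higher at 1 member locus and cDCs at 2, while 31 showed no call. The 3 calls make 8.82% of the tested members, where 17.6% of all loci were called (9.38% higher in pDCs and 8.27% in cDCs). The median log2 fold was 0.03 over the members and 0.01 over all loci. Both pDC libraries lay above both cDC libraries at 6 member loci and below them at 11, against 29.5% and 29.2% of all loci.

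**Figure D2:**
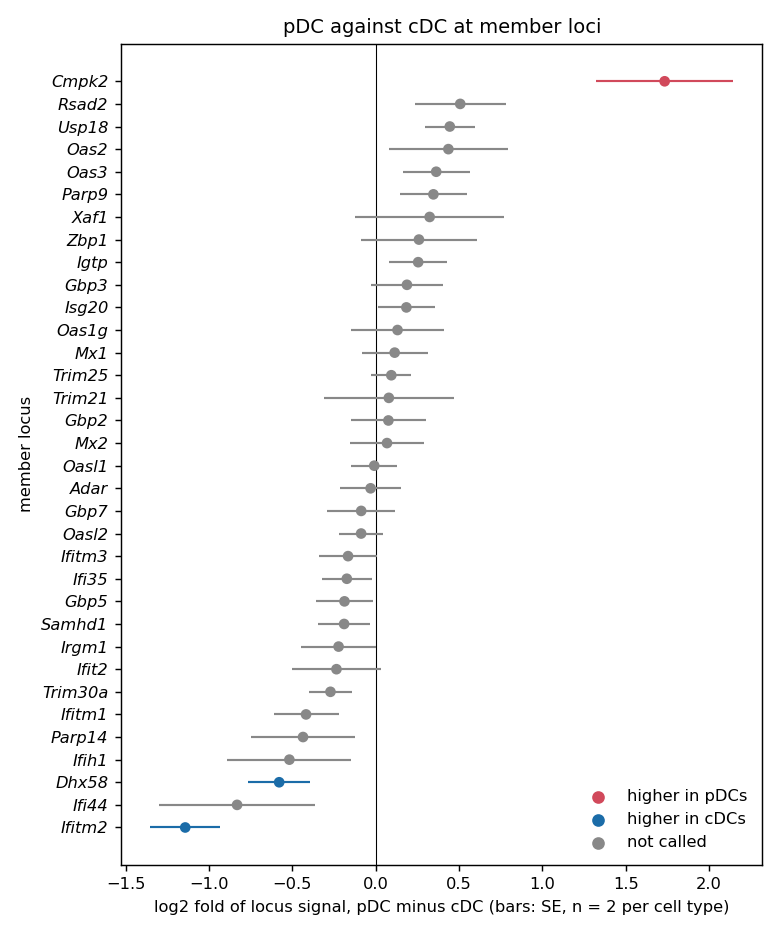
Log2 fold of the summed PU.1 signal of each of the 34 tested member loci, pDC minus cDC, with bars for the SE (n = 2 libraries per cell type). Cmpk2 is the 1 locus called higher in pDCs (red), Dhx58 and Ifitm2 are called higher in cDCs (blue), and the 31 grey loci were not called.

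Signal per kb differed widely between member loci. The highest means over the 4 PU.1 libraries were at Oasl2 with 5.10 and Oasl1 with 4.78 locus CPM per kb, followed by Trim25 (4.04), Ifitm3 (3.65), Ifi35 (3.33) and Isg20 (2.94). At the low end Ifih1 and Xaf1 both had 0.12 locus CPM per kb and Ifi44 had 0.16. A median of 59.4% of a member's windows were shared with the locus of another gene, and 11 members shared all of them. A locus value is thus not the signal of that gene alone.

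**Figure D3:**
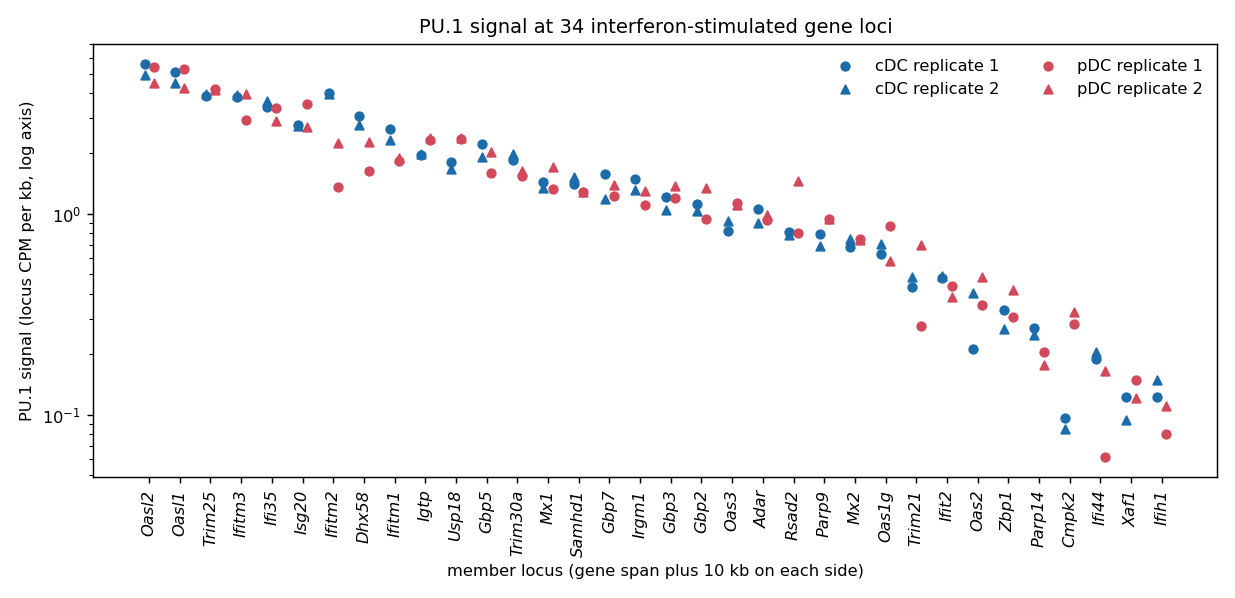
Locus CPM per kb (log axis) of the 34 tested member loci in each PU.1 library, ordered by the mean over the 4 libraries. Circles are replicate 1 and triangles replicate 2, blue for cDCs and red for pDCs, and the red points of Ifitm2 lie below its blue points while those of Cmpk2 lie above.

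The oligoadenylate synthetase family, which makes the messenger that activates RNase L, held both the strongest member site and, in Oas1a, a member with no listed window. Oasl1 and Oasl2 encode synthetase-like proteins and lie side by side on chromosome 5, sharing 14 tested windows. Their shared site (chromosome 5, 114921901 to 114922610) lies 0.53 kb from the Oasl1 span and was in the top 0.92% of all sites by its highest window. The nearest annotated start to that window is that of Gm13822, which is not a member, at 206 bp. The window lies at -1185 bp from the Oasl1 start. That window held 20.7 and 18.9 CPM in cDCs and 26.0 and 17.4 CPM in pDCs, with 0 counts in the input, and the cell types overlapped. The site made up 66.2% of the Oasl1 locus signal in cDCs and 73.6% in pDCs. On the side towards Oasl1 the site has a low shoulder, 400 to 550 bp from the highest window, with 14 to 15 input counts per window. The shoulder also held the window with the smallest p, with a log2 fold of 2.31 ± 0.65, whereas the summed counts of the site gave 0.17. The site was not called (edgeR adjusted p = 0.0949).

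As whole loci, Oasl2 held 198 and 174 CPM in cDCs and 190 and 159 CPM in pDCs, and Oasl1 held 178 and 155 CPM against 184 and 147 CPM. Neither was called. Oas3, a synthetase, held 36.9 and 41.0 CPM in cDCs and 50.5 and 49.6 CPM in pDCs, and Oas2 held 8.36 and 15.9 CPM against 13.9 and 19.1 CPM. Both were uncalled loci, and they share 7 windows. Oas1g held 19.8 and 22.3 CPM in cDCs and 27.5 and 18.4 CPM in pDCs. Oas1a had no listed window. Oas1a and Oas1g are similar genes that may share reads, and the sources used here do not say how such reads were counted.

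The Ifit proteins bind viral RNA ends and block translation. Only Ifit2 of the 3 Ifit members had tested windows, with 22.003 and 22.6 CPM in cDCs and 20.0 and 17.8 CPM in pDCs. The cDC libraries lay above the pDC libraries, and the locus was not called. Ifit1 had no listed window and Ifit3 had 1 listed window, which fell to the filter on low counts. The Mx genes encode dynamin-like antiviral GTPases, and both are annotated as transcribed pseudogenes in the reference. Mx1 held 51.9 and 48.3 CPM in cDCs and 47.5 and 61.2 CPM in pDCs, and Mx2 held 30.7 and 33.4 CPM against 33.8 and 33.4 CPM, without a call.

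PU.1 signal was higher in cDCs at Ifitm2, 1 of the genes for interferon-induced transmembrane proteins that restrict virus entry (chromosome 7, 140954837 to 140959686). The locus held 99.3 and 97.8 CPM in cDCs and 33.9 and 55.9 CPM in pDCs. Both cDC libraries lay well above both pDC libraries. The log2 fold was -1.14 ± 0.21, or 2.21-fold higher in cDCs (edgeR adjusted p = 0.00216). Each of the 25 windows there also belongs to the locus of another gene.

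The difference at Ifitm2 lay mostly in 1 site, 7.43 kb beyond the gene span (chromosome 7, 140946851 to 140947410). It carried 57.3% of the locus signal in cDCs and 46.6% in pDCs. Its highest window lies 3038 bp after the start of Ifitm5, the nearest annotated start, and held 8.69 and 9.93 CPM in the cDC libraries, with only 1.98 and 4.34 CPM in the pDC libraries. At the window with the smallest p the log2 fold was -1.66 ± 0.31 (edgeR adjusted p = 0.00306 for the site). The site was called under all 13 alternatives tried for sites. The other sites of the locus together held 43.6 and 40.6 CPM in cDCs and 20.0 and 27.9 CPM in pDCs. By the gene span alone the locus was not called, at a log2 fold that fell to -0.72 (adjusted p by edgeR 0.312, the highest over its 16 alternatives, the lowest being 9.0e-17). It also lost its call against a minimum fold of 1.5 and with library sizes from repeat windows. With flanks of 50 kb it kept its call at a smaller log2 fold of -0.42 (edgeR adjusted p = 0.00639).

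The neighbouring Ifitm loci were not called. Ifitm1 held 59.4 and 52.4 CPM in cDCs and 41.3 and 42.4 CPM in pDCs, and Ifitm3 held 80.5 and 82.5 CPM against 62.0 and 83.6 CPM. The cDC libraries were both above the pDC libraries at Ifitm1 but overlapped at Ifitm3. Where 1 library is left out, here and below, its cell type has 1 library and the spread comes from the pair of the other cell type alone, so that the single library is assumed to vary like that pair. Without pDC replicate 2 Ifitm3 was called higher in cDCs (log2 fold -0.41), and without pDC replicate 1 its log2 fold turned to 0.04 without a call.

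**Figure D4:**
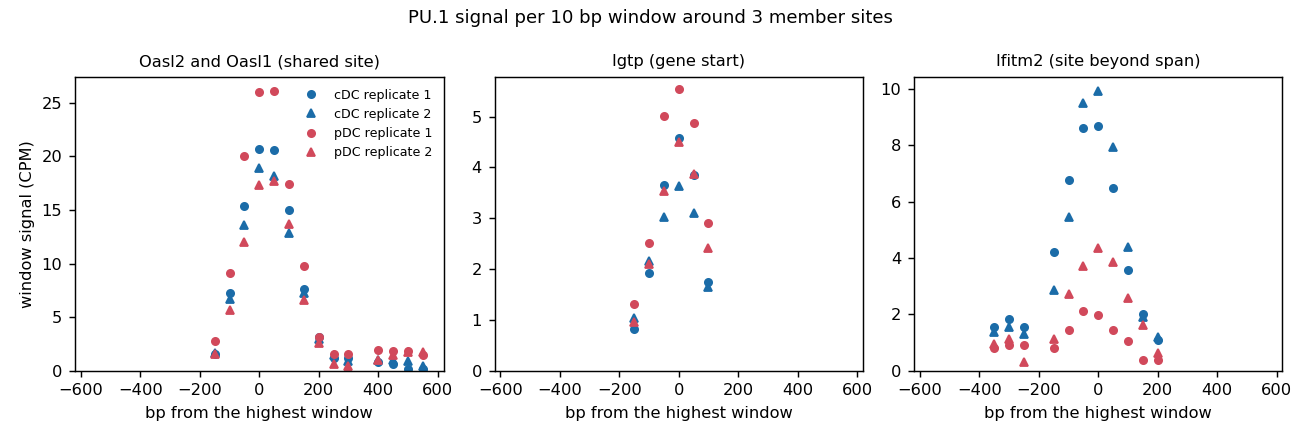
PU.1 signal (CPM) in each tested 10 bp window against the distance from the highest window of 3 sites, with cDC libraries in blue and pDC libraries in red (circle replicate 1, triangle replicate 2). At the highest window the libraries of the cell types interleave at the site shared by Oasl2 and Oasl1 and at the Igtp start. Both pDC libraries lie above both cDC libraries at 50 and 100 bp in the Igtp panel. The same holds from 450 to 550 bp in the Oasl2 and Oasl1 panel. At the highest window of the Ifitm2 site the cDC libraries reach 8.69 and 9.93 CPM and the pDC libraries 1.98 and 4.34 CPM.

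Among cytosolic RNA sensors, Dhx58, which encodes LGP2 (chromosome 11, 100694884 to 100704271), was higher in cDCs. The locus held 90.8 and 81.5 CPM in cDCs and 48.3 and 67.4 CPM in pDCs, so that the cell types did not overlap. The log2 fold was -0.58 ± 0.19 (edgeR adjusted p = 0.0448), close to the threshold. As at Ifitm2, each of the 17 windows also belongs to the locus of another gene. The call ended under 11 of 16 alternatives, among them leaving out cDC replicate 1 (-0.50), cDC replicate 2 (-0.65) or pDC replicate 1 (-0.35). No single site of the locus was called. The strongest (100702601 to 100702910, within the gene span) carried 76.6% of the signal in cDCs and 75.8% in pDCs, with 14.6 and 12.1 CPM in cDCs and 7.38 and 11.6 CPM in pDCs at its highest window. Ifih1, the gene of the sensor MDA5, held 8.69 and 10.5 CPM in cDCs and 5.68 and 7.82 CPM in pDCs and was not called.

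Usp18, a protease that removes ISG15 from proteins and dampens receptor signalling, came nearest to a call among the other loci and is named after its values were seen. It held 82.0 and 75.1 CPM in cDCs and 106 and 108 CPM in pDCs. All its windows are its own, and the 2 largest of its 4 sites, both in the gene span, carried 42.0% and 44.6% of the signal in cDCs. The log2 fold was 0.44 ± 0.15 (edgeR adjusted p = 0.0533). It was called higher in pDCs with TMM factors of windows (0.48), without pDC replicate 1 (0.46) and without pDC replicate 2 (0.42), and stood at -0.03 with library sizes from repeat windows. Zbp1, a sensor of Z-form nucleic acids, held 10.8 and 8.64 CPM in cDCs and 9.87 and 13.5 CPM in pDCs, and Eif2ak2, which encodes the kinase PKR, had only 1 listed window, below the filter.

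Counts in the PU.1 libraries were higher in pDCs at Cmpk2, a mitochondrial nucleotide kinase gene next to Rsad2 (chromosome 12, 26469117 to 26479837). The locus held 2.97 and 2.60 CPM in cDCs and 8.67 and 9.97 CPM in pDCs. Both pDC libraries lay above both cDC libraries, but the signal rested on only 4 windows with 27 and 25 counts in cDCs and 58 and 51 in pDCs. These windows met the filter on low counts through the pDC libraries only, so the fold is not free of that selection. With no filter on windows the log2 fold was 1.56. The log2 fold was 1.73 ± 0.41, or 3.33-fold higher in pDCs (edgeR adjusted p = 0.00977). The 3 windows at the start carried 86.5% of the signal in cDCs and 73.4% in pDCs, and their site was not called on its own (edgeR adjusted p = 0.0558). Neither this site nor the other site of the locus passed the test against the input described below. The log2 folds over input were 0.23 at the start (edgeR adjusted p = 0.879) and 1.07 at the other site (0.584). By this test, which averages both cell types, the locus is not shown to exceed the input. The call ended when cDC replicate 1 (1.83) or cDC replicate 2 (1.64) was left out, against a minimum fold of 1.5 and with library sizes from repeat windows. With flanks of 50 kb the call held at a smaller log2 fold of 0.86 (edgeR adjusted p = 0.0091).

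Rsad2, which encodes the antiviral enzyme viperin, held 27.3 and 26.3 CPM in cDCs and 27.2 and 49.4 CPM in pDCs. pDC replicate 2 stood apart from the other 3 libraries, and the locus was not called, though it was without pDC replicate 1. Its only site lay 5.10 kb after the start, within the gene span, while the promoter with its ISRE core held no window.

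The guanylate-binding protein and immunity-related GTPase genes are known for action against intracellular pathogens, and the 6 member loci among them (Gbp2, Gbp3, Gbp5, Gbp7, Igtp and Irgm1) were not called. Gbp5 held 101 and 87.0 CPM in cDCs and 72.4 and 92.8 CPM in pDCs, and Gbp7 63.1 and 47.3 CPM against 48.7 and 55.3 CPM. Gbp3 held 40.5 and 34.7 CPM in cDCs and 39.8 and 45.9 CPM in pDCs, and Gbp2 42.0 and 38.6 CPM against 35.3 and 50.02 CPM. The cell types overlapped at each of these 4 loci. Gbp5 changed direction between alternatives, with edgeR adjusted p up to 1.00 over all of them. It was called higher in pDCs by the gene span alone (log2 fold 1.61, edgeR adjusted p = 0.0449). The only site in that span (142504951 to 142505010) has 2 windows, with 4 to 8 counts per cDC library and 9 to 15 per pDC library. These windows met the filter on low counts through the pDC libraries only, so this fold is not free of that selection. Without pDC replicate 2 the log2 fold of the Gbp5 locus was -0.39. Igtp held 55.1 and 55.5 CPM in cDCs and 65.2 and 66.8 CPM in pDCs, and Irgm1 39.3 and 34.4 CPM against 29.0 and 34.2 CPM.

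The TRIM-family members differed in signal. At the Trim25 locus the total was flat, with 158 and 162 CPM in cDCs and 172 and 169 CPM in pDCs, but its sites differed in direction. A site 8.46 kb beyond the span (chromosome 11, 89028751 to 89029060) was called higher in cDCs. It held 7.50 and 6.65 CPM in cDCs and 1.32 and 3.38 CPM in pDCs at its highest window, at a log2 fold of -1.63 ± 0.35 (edgeR adjusted p = 0.00764). Without cDC replicate 1 its call ended, and without pDC replicate 2 its log2 fold was -2.41. A stronger site 3.86 kb beyond the span held 10.6 and 12.5 CPM in cDCs and 17.5 and 16.6 CPM in pDCs and was not called (log2 fold 0.56 ± 0.23, edgeR adjusted p = 0.271). Trim30a held 142 and 151 CPM in cDCs and 117 and 125 CPM in pDCs, and Trim21, which encodes an intracellular antibody receptor, 11.9 and 13.3 CPM against 7.62 and 19.3 CPM, both without a call.

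Other effector loci were not called. Isg20, an exonuclease gene, held 74.8 and 74.2 CPM in cDCs and 95.7 and 73.3 CPM in pDCs. A strong Isg20 site at -869 bp from the start held 9.51 and 9.42 CPM in cDCs and 15.7 and 11.9 CPM in pDCs at its highest window (edgeR adjusted p = 0.215). Ifi35 held 104 and 110 CPM in cDCs and 102 and 87.5 CPM in pDCs, and its strongest site lay beside the Rpl27 start, 5.75 kb outside the span. Adar, the RNA-editing enzyme, held 62.5 and 53.3 CPM in cDCs and 55.2 and 58.2 CPM in pDCs. Samhd1, which depletes nucleotides needed by viruses, held 81.2 and 87.6 CPM against 74.3 and 73.7 CPM. Parp9 held 43.2 and 37.3 CPM in cDCs and 51.1 and 51.2 CPM in pDCs, but 233 input counts fell in this locus, more than in any other member locus. Parp14, Ifi44 and Xaf1 held at most 16.2 CPM in any library.

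Seen site by site, the member loci held 113 sites, of which 58 touched a gene span and 8 fell in the loci of more than 1 member. A site is a run of windows at most 100 bp apart, tested by combining the p-values of its windows by the Simes method. Among the 113 sites, pDCs were higher at 5 and cDCs at 4, while 104 showed no call. None of the 9 called sites passed the test against the input described below. That test averages the log2 folds of both cell types over the input, so a site low in 1 cell type is less likely to pass. The called sites are thus differences in counts at places not shown to exceed the input by that average. The 9 calls make 7.96% of member sites, where 14.5% of all 60527 sites were called (8.46% higher in pDCs and 6% in cDCs). The 5 strongest sites, at Oasl1, Trim25, Isg20, Dhx58 and Ifi35, were all among the uncalled ones. Alternatives called 3 of them, the Oasl1 site with windows joined at 50 bp (edgeR adjusted p = 0.0412) and, without pDC replicate 2, the Isg20 site (0.0122) and the Dhx58 site (0.00498). Over all alternatives the adjusted p of these 3 reached 0.973, 1.00 and 0.711.

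The 5 sites higher in pDCs were small, with 1 to 3 windows each and 0 to 3 input counts at the highest window. At the Adar site (chromosome 3, 89748951 to 89749010, in the gene span) the window with the smallest p held 0.457 and 0.259 CPM in cDCs and 3.16 and 1.61 CPM in pDCs, at a log2 fold of 2.73 ± 0.58 (edgeR adjusted p = 0.00323). At the Cmpk2 site, 8.46 kb beyond the span, the same measure was 0.366 and 0.259 CPM against 1.45 and 2.73 CPM. The other 3 lay at Samhd1, Oas2 and Gbp3, with log2 folds of 2.55, 2.31 and 1.87. In cDCs these 5 windows held only 3 to 6 counts per library, and in pDCs 10 to 24. They met the filter on low counts through the pDC libraries only, so their folds are not free of that selection. The Adar call ended without pDC replicate 1, the Cmpk2 call without cDC replicate 2 or pDC replicate 2, and the Samhd1 call without cDC replicate 1, cDC replicate 2 or pDC replicate 1. The Oas2 call ended without either cDC replicate or pDC replicate 2, and the Gbp3 call without any 1 of the 4 libraries.

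Besides the Ifitm2 and Trim25 sites, those higher in cDCs lay at Irgm1 and Samhd1. The Irgm1 site (chromosome 11, 48877551 to 48877760), 6.13 kb beyond the span, held 2.84 and 2.94 CPM in cDCs and 0.659 and 0.483 CPM in pDCs at the window with the smallest p (log2 fold -2.29 ± 0.51, edgeR adjusted p = 0.0101). The Samhd1 site was a single window 3.30 kb beyond the span, with 19 and 14 counts in cDCs and 1 and 2 in pDCs (log2 fold -2.68 ± 0.74). With the counts of all windows of the Irgm1 site summed, the log2 fold was -1.43. At both sites the window with the smallest p met the filter on low counts through the cDC libraries only. The Irgm1 call ended without cDC replicate 1 and without cDC replicate 2. The Samhd1 call ended without cDC replicate 1, without cDC replicate 2 and without pDC replicate 1. Samhd1 thus held called sites in both directions.

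**Figure D5:**
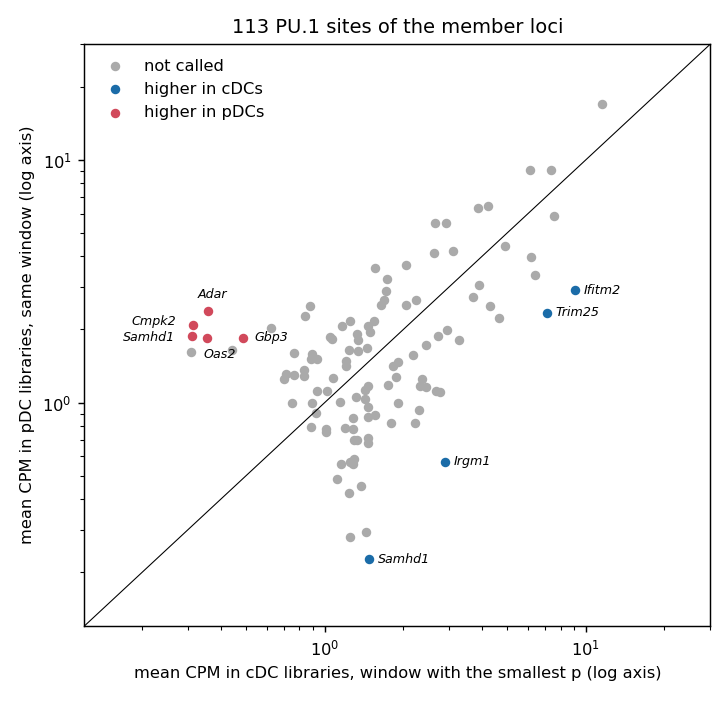
Mean CPM in the cDC libraries (x axis) and in the pDC libraries (y axis) at the window with the smallest p of each of the 113 member sites, both on log axes, with the line of equality. The 5 sites called higher in pDCs (red) lie at low signal on the left, and the 4 called higher in cDCs (blue) lie below the line, with Ifitm2 and Trim25 among the stronger sites.

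Sites were also compared with the input. At the highest window, the 5 strongest sites had 0 to 3 input counts. In a test of the 4 PU.1 libraries against the input, 33 of 113 member sites (29.2%) passed with a fold of at least 2, and 28.6% of all sites did. The 5 strongest sites passed, while none of the 9 sites called between cell types did. Since the test averages both cell types, it cannot show whether those 9 sites exceed the input in 1 cell type. With cDCs alone against the input 44 member sites passed (38.9%, with 40.5% of all sites). With pDCs alone 31 passed (27.4%, with 30.5% of all sites). Whether the 9 called sites were among them was not followed site by site. The log2 fold over input was 2.24 at the Ifitm2 site (edgeR adjusted p = 0.108) and -0.31 at the Samhd1 site higher in pDCs (0.835). Among all sites, 15% of those above input and 14.2% of the others were called between cell types. The count of 33 rested on the scaling of the single input, since 1 member site passed with TMM factors and 109 with library sizes from repeat windows. The cDC input also served for pDCs.

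Further genes of the pathway were taken from written lists, the first of which also holds the member Oas1g, an uncalled locus. Of 75 interferon-stimulated loci tested from that list, pDCs were higher at 5 and cDCs at 7, while 63 showed no call (median log2 fold -0.02). The called share was 16%, against 17.6% of all loci. Gbp10 (2.05 ± 0.34), Gbp9 (1.03 ± 0.20) and Gbp4 (0.62 ± 0.17), guanylate-binding protein genes on chromosome 5, were higher in pDCs. Lgals3bp (-1.45 ± 0.36), the chemokine gene Cxcl10 (-1.20 ± 0.31) and Ifi207 (-0.73 ± 0.21) were higher in cDCs. Gbp9 and Gbp4 each had 15 windows that also lie in another gene locus, as do all windows of Cxcl10 and Lgals3bp.

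Of 32 interferon ligand, receptor and signalling loci, 3 were higher in each direction and 26 were not called (18.8% called, median 0.08). Ifnb1, the interferon beta gene, held 32.0 and 29.4 CPM in cDCs and 9.42 and 11.3 CPM in pDCs, with a log2 fold of -1.57 ± 0.28. Ifngr1, a chain of the interferon gamma receptor, lay at -0.70 ± 0.15 and the repressor gene Irf2 at -0.30 ± 0.10. Ifna1, an interferon alpha gene, lay at 0.96 ± 0.24, the phosphatase gene Ptpn6 at 0.42 ± 0.12 and Ifnar2, a chain of the type I interferon receptor, at 0.40 ± 0.12. The interferon alpha genes are near-identical copies, so their reads may be divided among them. Of 18 nucleic acid sensing loci, 4 were called (22.2%, median -0.07), near the 17.6% of all loci that were called. Each of the 4 was higher in cDCs, as were 8.27% of all loci. They included Tlr3 (-0.64 ± 0.14), Mavs (-0.97 ± 0.23) and the DNA sensor gene Aim2 (-0.48 ± 0.13).

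PU.1 signal at a marker locus does not show that a cell type is present, so the labelled cell types could not be checked by expression. At marker loci, 5 of 14 cDC genes were higher in cDCs, and 6 of 12 pDC genes were higher in pDCs and 1, Pacsin1, in cDCs. Among all loci 9.38% were higher in pDCs and 8.27% in cDCs. Of 9 B cell genes 4 were higher in pDCs, and of 10 macrophage and neutrophil genes 2 were higher in each cell type. Of 5 T and NK cell genes 0 were called by edgeR (1 at an unadjusted p below 0.05). The part of other cells in the values above was not tested.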

How the data were processed

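PU.1 ChIP-seq libraries of cDCs and pDCs, 2 biological replicates each, and 1 cDC input were used. The deposited values are read counts per 10 bp window with no normalisation, per the file headers. Subread 1.4.4 and the build mm10 are named, per the submitters' processing notes. What Subread was used for, read extension, filters and how windows were chosen: not given in the sources used here. No listed window sums to fewer than 33 counts over the 5 libraries. A read can count in several windows, so totals are not depth. Each sample's own file equalled its column of the series table.

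A filter on low counts (filterByExpr, minimum 10) kept 286435 of 329996 windows. The libraries of either cell type alone could meet it. In R 4.3.3, edgeR 4.0.16 gave quasi-likelihood tests over all windows and over all locus sums, each with its own TMM factors. The model held cell type alone, and p-values were adjusted by Benjamini-Hochberg at 0.05. The coefficient of variation between replicates was 0.159 for windows and 0.150 for loci. SEs are those implied by the F statistic. Windows at most 100 bp apart were joined to sites, split at 5000 bp. Genes came from RefSeq for GRCm38.p6 as protein-coding spans, to which Mx1 and Mx2 were added, and starts from its promoter table. For the input test, library sizes were totals over windows, and the spread of the 1 input library was taken to equal that of the PU.1 libraries. With 2 against 2 libraries an exact permutation test cannot go below p = 0.333, so none was used. P-values set the difference between groups against the spread between these libraries, which edgeR estimates with help from all windows or loci.

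The members and lists were chosen with earlier results of these data known. Loci that passed, members with a called site, the 6 uncalled members with the most signal per kb, the 5 strongest sites and members without tested windows are named, others by role. A further promoter motif is not reported here. Alternatives covered scaling, filters, single libraries, the block, a minimum fold, DESeq2 1.42.0, locus and site definitions and the input scaling.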

Additional observations from a re-analysis of the deposited data

How the results depend on the processing

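The counts of called members are small and moved with most choices. The 1 locus higher in pDCs and 2 higher in cDCs became 2 and 2 with no filter on windows, 0 and 1 when windows needed a mean of 30 counts, 0 and 0 against a minimum fold of 1.5, 2 and 0 by the gene span alone, 4 and 8 with flanks of 50 kb, and 1 and 1 by nearest gene. Leaving out 1 library gave 0 to 3 loci higher in pDCs and 1 to 6 higher in cDCs. With the replicate block, loci counted 1 and 1, since Dhx58 lost its call (edgeR adjusted p = 0.0531), while the sites counted stayed within 1.5 times. Over all sites, 9680 were called with the block and 8757 in the main fit. Same-numbered libraries did not deviate together (correlation -0.00866 over loci and 0.0125 over windows). With 1 difference per cell type, this cannot show whether the libraries were prepared in pairs. The 5 sites higher in pDCs and 4 higher in cDCs became 0 and 2 when windows needed a mean of 30 counts, and 1 to 9 and 1 to 10 when 1 library was left out. In these fits 1 cell type has a single library, assumed to vary like the pair of the other, so their counts are not of equal standing with the 2 against 2 fit. Without pDC replicate 2, 36% of all loci and 25.9% of all sites were called, and without cDC replicate 1 5.87% and 5.01%.

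Scalings chosen after seeing the data were also tried. With TMM factors of windows used for loci, pDCs were higher at 2 loci and cDCs at 1. With library sizes from repeat windows, 0 loci were called in either direction while 1 site was higher in pDCs and 6 in cDCs, and the median log2 fold of all loci moved from 0.01 to -0.46, so that the member median of -0.49 lay near it. For sites, library-size scaling moved the split of all calls from 5123 higher in pDCs and 3634 in cDCs to 4218 and 5057, and that of member sites from 5 and 4 to 4 and 6. The 33 sites above input became 1 with TMM factors and 109 with library sizes from repeat windows.

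Of the uncalled loci with the most signal per kb, 5 changed sign without a call. Oasl1 (log2 fold -0.01) turned to 0.09 without cDC replicate 1, 0.13 without pDC replicate 2, 0.034 with TMM factors of windows, 0.032 with flanks of 50 kb and 0.15 by nearest gene, and ran from -0.18 to 0.13 when 1 library was left out. Oasl2 turned to 0.01 without cDC replicate 1 and 0.022 without pDC replicate 2, from a low of -0.23 without 1 library. Isg20 turned to -0.025 without pDC replicate 1 (up to 0.35 without pDC replicate 2), -0.23 with repeat windows and -0.21 by the gene span alone, Ifitm3 to 0.037 without pDC replicate 1 (-0.41 without pDC replicate 2), and Trim25 to -0.38 with repeat windows. Of the single loci and sites followed through the alternatives, 255 values kept their direction and side of the threshold, 43 lost a call, 5 gained one and 12 changed sign. The cause of these changes was not tested. The 5 sites higher in pDCs rest on 10 to 24 counts per pDC library.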
